A study of Mus musculus with 16 samples.

Results

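Sox2 binding one day into reprogramming was compared between a cocktail with wild type Oct4 and one with Oct4defSox2, an Oct4 mutant impaired in pairing with Sox2 on DNA. The members were the 15219 Sox2 summits of the Oct4-SK library and the 5793 Sox2 summits of the Oct4defSox2-SK library on chromosomes 1 to 19, X and Y, together 21012 of the 227116 summits in the 13 libraries of the series analysed here. A summit is the base at which a peak caller placed the maximum of a ChIP-seq peak, and 2 summits counted as the same site when they lay within 100 bp of each other. The whole comparison was repeated with the 5793 highest scoring summits of each library (equal numbers). Of the libraries set beside the Sox2 sites, Sox2 in Oct6-SK (3242 summits at day 1 and 2669 at day 5), Oct4 at day 5 (4846) and day 7 (3614) and Oct4defSox2 at day 5 (1034) hold fewer summits than that and entered whole.

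The cells were OG2 mouse embryonic fibroblasts (OG2MEF), a primary and mixed population that carries a GFP transgene driven by the Oct4 promoter. Every sample used here had received Sox2 and Klf4 (SK) from pMX retroviruses, and the samples differ in the third virus, which carried Oct4, Oct4defSox2 (deposited under the name YR), Oct6, Oct4S151M or Oct6M151S. Cells were then moved into the chemically defined medium iCD1, and days 1, 5 and 7, at which they were collected, were counted from that change. Both Sox2 libraries were made with a Sox2 antibody, and the paper names more than 1 such antibody without saying which library used which. Each of the 13 groups is 1 library, so no test between conditions was possible. Every interval given is a 95% interval for a share of sites or a difference of shares, covers counting error only and compares libraries, not conditions. The lists hold no read numbers, and sequencing depth was not analysed here. They also hold no expression values, so the labelled cell type could not be checked against marker genes.

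Sox2 is an HMG box factor that binds a short Sox element on its own, whereas Oct4 is a POU factor that reads the octamer. On a composite SoxOct element, in which a Sox element lies next to an octamer, both proteins bind side by side and touch each other, and such elements are known from enhancers of pluripotent cells. Klf4, delivered in both cocktails, binds GC-rich KLF elements, and AP-1 factors of the Fos and Jun families occupy enhancers of fibroblasts.

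The sequences that carry the comparison are shown first. Each was read from the mm10 genome (GRCm38) at a Sox2 summit, 5′ to 3′ on the strand named, with a matched element in capitals. The first lines give the 3 highest scoring Oct4-SK-only sites with a SoxOct match. The match is the Sox part, 1 free base and the octamer with at most 2 mismatches in all. All 3 also lay within 100 bp of an Oct4defSox2 summit.
Itfg1 intron, chr8:85729387-85729461, minus strand: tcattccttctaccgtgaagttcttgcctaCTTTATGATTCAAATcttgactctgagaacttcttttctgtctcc
Between genes, chr12:39699771-39699845, plus strand: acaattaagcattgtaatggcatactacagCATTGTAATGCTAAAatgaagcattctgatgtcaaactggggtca
Between genes, chr2:171593994-171594068, plus strand: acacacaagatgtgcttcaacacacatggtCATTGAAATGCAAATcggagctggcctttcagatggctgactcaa
The next lines give the 3 highest ranked shared SoxOct sites after sites with summits of all 3 antibodies, Oct4, Oct6 and Sox2, were passed over.
Between genes, chr6:22264822-22264896, plus strand: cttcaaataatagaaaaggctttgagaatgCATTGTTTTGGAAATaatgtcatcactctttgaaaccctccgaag
Cmss1 intron, chr16:57473657-57473731, minus strand: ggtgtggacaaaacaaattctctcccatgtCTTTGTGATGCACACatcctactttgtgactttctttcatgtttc
Slc39a11 intron, chr11:113292547-113292621, plus strand: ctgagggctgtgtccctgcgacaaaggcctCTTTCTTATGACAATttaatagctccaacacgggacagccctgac
Then come the highest scoring Oct4defSox2-SK-only site with a SoxOct match and an Oct4defSox2-SK-only site with a single Sox element.
Between genes, chr10:99538822-99538896, plus strand: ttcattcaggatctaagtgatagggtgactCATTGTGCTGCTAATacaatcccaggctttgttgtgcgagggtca
Cdh11 intron, chr8:102726638-102726704, plus strand: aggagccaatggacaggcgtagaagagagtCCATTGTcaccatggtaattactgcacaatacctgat
The last lines give the SoxOct matches beside Pou5f1, the gene of Oct4, and Sox21, a Sox gene of neural progenitors.
Pou5f1 upstream, chr17:35504019-35504093, minus strand: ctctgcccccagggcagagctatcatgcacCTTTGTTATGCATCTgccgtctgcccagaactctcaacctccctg
Sox21 downstream, chr14:118230314-118230388, plus strand: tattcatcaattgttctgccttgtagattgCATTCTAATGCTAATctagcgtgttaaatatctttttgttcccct

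Most Sox2 sites of day 1 were found in 1 cocktail only. Of the 19388 merged sites, 13600 (70.1%) were in the Oct4-SK list only, 4171 (21.5%) in the Oct4defSox2-SK list only and 1617 (8.34%) in both. Counted from the longer list, 1618 of 15219 Oct4-SK summits had a partner (10.6%, interval 10.2 to 11.1). Counted from the shorter list, 1618 of 5793 Oct4defSox2-SK summits had one (27.9%, interval 26.8 to 29.1). With equal numbers the share was 20.7% from the Oct4-SK side and 20.6% from the Oct4defSox2-SK side. So most of the strongest Oct4-SK sites, and most of the Oct4defSox2-SK list, which enters whole at this number, had no partner in the other set.

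Shared summits lay close together, with a median distance of 42 bp, and 235 of the 1618 Oct4defSox2-SK summits were within 10 bp of their partner. Of the 13601 Oct4-SK summits without a partner, 68.8% had no Oct4defSox2-SK summit within 50 kb and 4.72% had one just past the 100 bp limit, within 250 bp. Of the 4175 Oct4defSox2-SK summits without a partner, 34.5% had no Oct4-SK summit within 50 kb and 15.8% had one past the limit but within 250 bp.

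Sharing rose with the score, the −log10 of the p-value at the summit. The median score was 12.8 at shared and 7.66 at Oct4-SK-only sites in the Oct4-SK library, and 10.8 at shared and 8.52 at Oct4defSox2-SK-only sites in the other. When each library was divided into 5 equal groups by score, 29.0%, 10.9%, 6.80%, 3.12% and 3.38% of Oct4-SK summits were shared from the highest to the lowest group. The corresponding values for Oct4defSox2-SK summits were 48.7%, 30.1%, 23.6%, 20.7% and 16.6%. Even in the highest group, sites without a partner outnumbered shared ones, though narrowly so in Oct4defSox2-SK. Across the 1618 pairs the scores of both libraries had a Spearman rho of 0.293, given as a description, and 73.9% of the Oct4-SK partners were themselves among the top 5793.

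**Figure D1:**
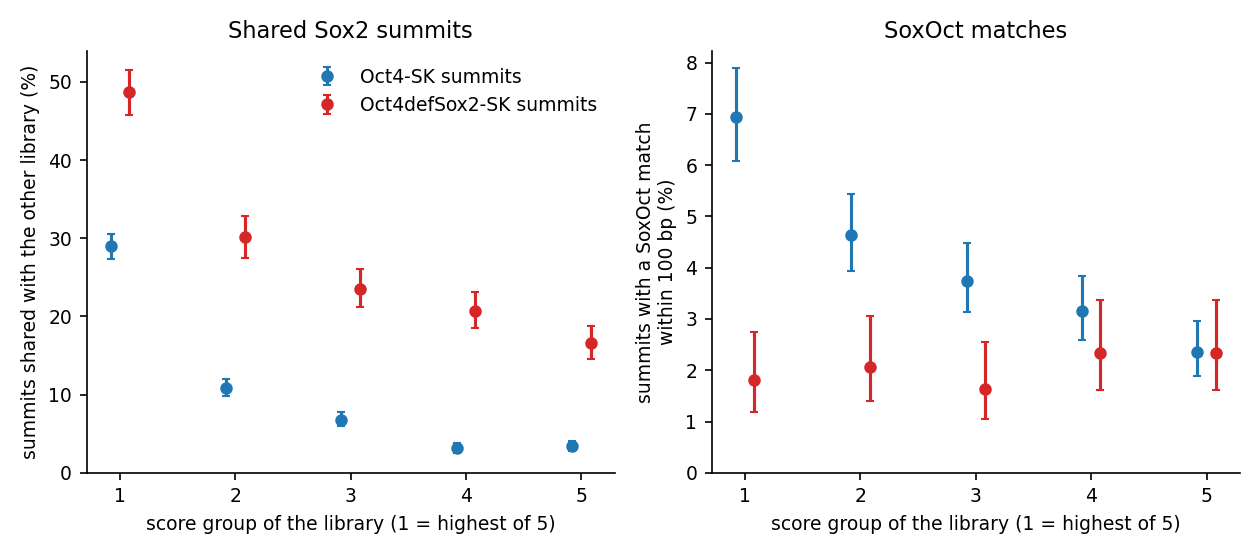
Share of Sox2 summits found in the other library (left, %) and with a SoxOct match within 100 bp (right, %) against the score group of the library (1 is the highest of 5), with 95% counting intervals, for Oct4-SK (blue) and Oct4defSox2-SK (red) at day 1. Sharing falls from 29.0% to 3.38% in Oct4-SK and from 48.7% to 16.6% in Oct4defSox2-SK, while SoxOct matches fall with the score in Oct4-SK only, from 6.93% to 2.37%.

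The composite SoxOct element was more frequent at Sox2 sites of the wild type cocktail only than at those of the mutant cocktail only. It was searched on both strands within 100 bp of each summit, and the same search in windows 2 kb to either side gave the background. A match describes the sequence and is not proof of a bound site. SoxOct was matched at 572 of 13601 Oct4-SK-only sites (4.21%, background 1.13%), at 62 of 1618 shared sites (3.83%, background 1.42%) and at 61 of 4175 Oct4defSox2-SK-only sites (1.46%, background 1.41%). The Oct4-SK-only share was thus well above its background and the Oct4defSox2-SK-only share was not. The difference between the sites of 1 cocktail only was 2.74 percentage points (interval 2.22 to 3.22). With equal numbers the shares were 6.53%, 4.01% and 1.59%, so the gap was wider with the Oct4-SK list limited to its strongest sites. The Oct4defSox2-SK list, of 5793 summits, enters whole at equal numbers.

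SoxOct matches also followed the score in 1 library only. From the highest to the lowest score group of Oct4-SK summits they were found at 6.93%, 4.63%, 3.75%, 3.15% and 2.37%. In the Oct4defSox2-SK library the values were 1.81%, 2.07%, 1.64%, 2.33% and 2.33%, with overlapping intervals. The median score of sites with a match was 9.19 against 7.66 without in Oct4-SK, and 8.48 against 8.76 in Oct4defSox2-SK. Close matches were rare everywhere. A best match with 1 mismatch stood at 63 Oct4-SK-only sites, 7 shared sites and 3 Oct4defSox2-SK-only sites, and a perfect match at 2, 0 and 1. A fall with the score in Oct4-SK only was not particular to SoxOct. The AP-1 element stood at 14.0%, 11.4%, 9.43%, 6.54% and 7.46% of Oct4-SK summits from the highest to the lowest group. In Oct4defSox2-SK it stood at 13.5%, 13.5%, 14.1%, 13.6% and 14.0%. The single octamer also fell in Oct4-SK only, whereas the single Sox element fell in both libraries. The KLF element fell in neither.

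The single octamer ATGCAAAT showed the same order. It was present at 3.07% of Oct4-SK-only sites (background 1.61%), 2.04% of shared sites (background 1.73%) and 0.982% of Oct4defSox2-SK-only sites (background 1.69%). The last value lay below its background, and the difference between the cocktail-specific classes was 2.09 points (interval 1.65 to 2.49). Of the 634 Oct4-SK sites with a SoxOct match, 100 also held the exact octamer and 155 an exact Sox element, so these searches overlap in part.

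Sites of both cocktails were instead richest in the single Sox element, searched as CCATTGT or CCTTTGT. It was found at 35.0% of shared sites (background 8.22%), 26.8% of Oct4defSox2-SK-only sites (background 7.88%) and 17.0% of Oct4-SK-only sites (background 7.38%). Every class was therefore above its background, a check that precipitation of Sox2 recovered Sox elements in both libraries. With equal numbers the shares were 37.4%, 26.9% and 23.9%, and the gap between the cocktail-specific classes shrank from −9.77 to −2.98 points. At least 2 Sox elements stood at 5.87% of shared, 3.90% of Oct4defSox2-SK-only and 1.77% of Oct4-SK-only sites. Oct4-SK sites with a Sox element were shared 11.1 points more often than those without (interval 9.64 to 12.7), whereas sites with the octamer were shared less often, by −3.42 points (interval −5.54 to −0.592).

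The AP-1 element, TGACTCA or TGAGTCA, followed the single Sox element in its order. It stood at 16.8% of shared sites (background 3.46%), 12.7% of Oct4defSox2-SK-only sites (background 3.60%) and 8.94% of Oct4-SK-only sites (background 3.43%). Its values with equal numbers were 17.2%, 12.99% and 11.6%. When only summits with a score of at least 10 were kept, the difference between the cocktail-specific classes, −3.78 points over all sites, became 0.437 points with an interval that includes 0. The KLF element (GGGCGGGGC, GGGCGTGGC, GGGTGGGGC or GGGTGTGGC) stood at 1.32%, 1.11% and 1.29% of Oct4-SK-only, shared and Oct4defSox2-SK-only sites. MORE, an element on which POU factors form homodimers, was matched with at most 1 mismatch at 1.26%, 1.24% and 0.934% of them. For KLF the difference between the cocktail-specific classes was 0.0227 points (interval −0.406 to 0.387) and for MORE 0.323 points (interval −0.0590 to 0.644). The MORE difference with equal numbers was 0.588 points with an interval of 0.141 to 1.05, which does not include 0.

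**Figure D2:**
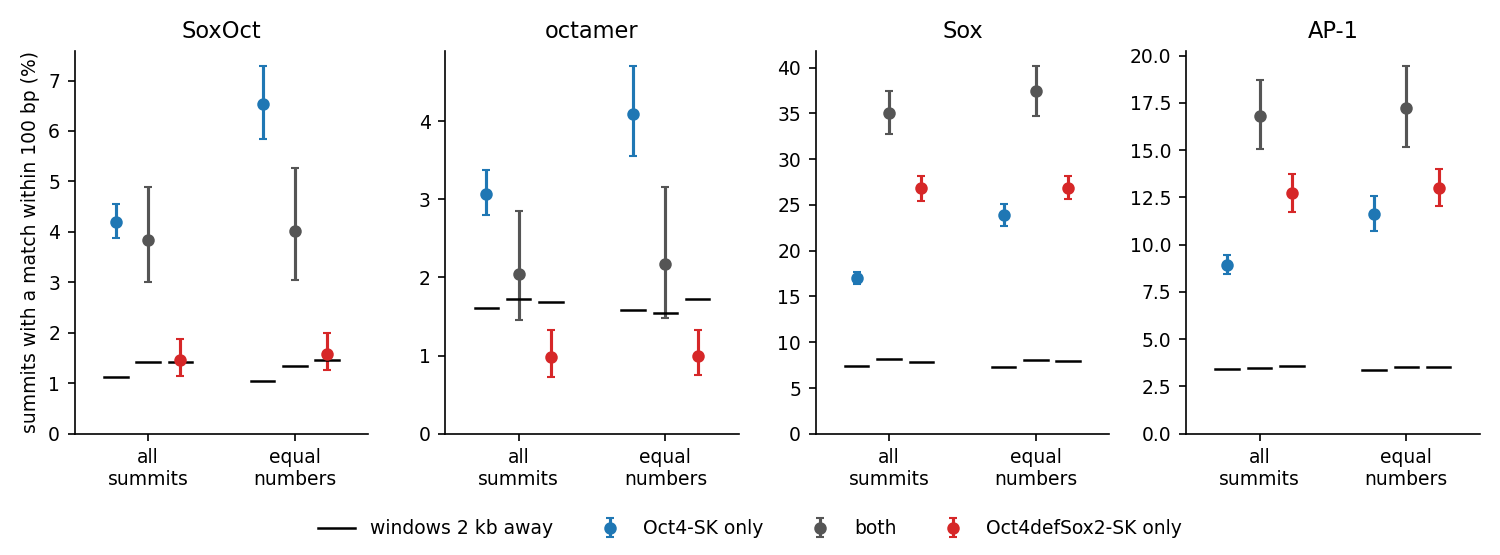
Share of Sox2 sites with a match within 100 bp of the summit (%) for 4 elements, with all summits and with equal numbers, in Oct4-SK-only (blue), shared (grey) and Oct4defSox2-SK-only sites (red), with 95% counting intervals and black lines for windows 2 kb away. SoxOct is at 4.21% of Oct4-SK-only and 1.46% of Oct4defSox2-SK-only sites, while the Sox element peaks at 35.0% in shared sites.

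Within the search window, matches were spread broadly around the summit. Of the SoxOct matches within 100 bp of Oct4-SK-only summits, 28.5% (173 of 608) were centred within 25 bp, against 20.3% (13 of 64) at Oct4defSox2-SK-only summits, with overlapping intervals. For the Sox element the corresponding values were 27.3% and 28.9%, and 31.1% at shared summits.

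**Figure D3:**
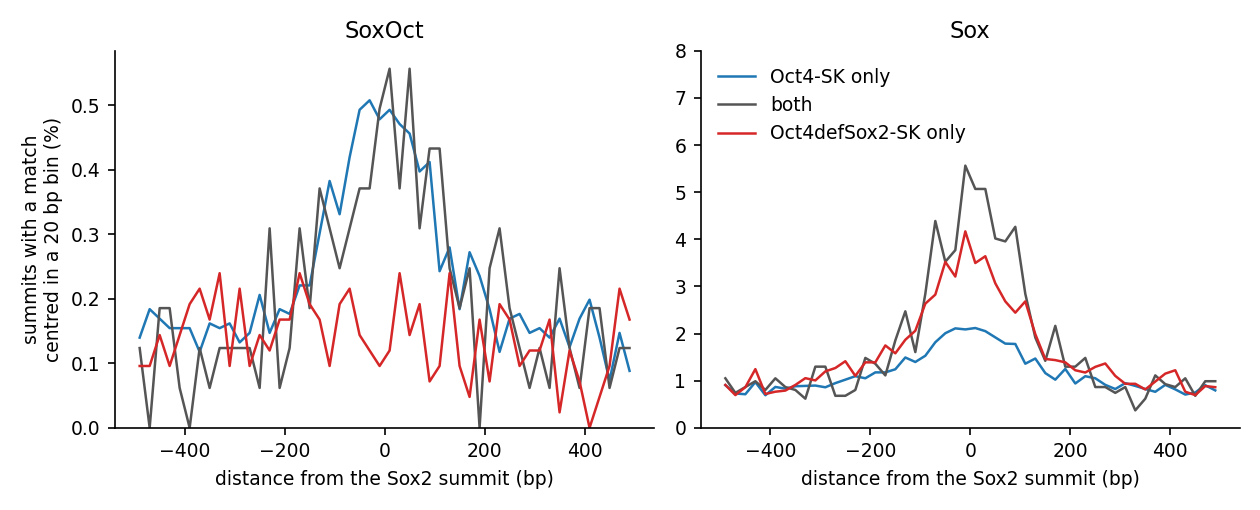
Share of sites with a SoxOct match (left) or a Sox element (right) centred in each 20 bp bin (%) against the distance from the Sox2 summit (bp), for Oct4-SK-only (blue), shared (grey) and Oct4defSox2-SK-only sites (red). The blue and grey SoxOct lines rise at the summit and the red line stays at its outer level, whereas all 3 Sox lines rise there.

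Sharing was next counted by the presence of the mutant itself, from its day 1 summits made with the Oct4 antibody. At the 339 Oct4-SK Sox2 sites with both a SoxOct match and an Oct4defSox2 summit within 100 bp, 54 were shared (15.9%, interval 12.4 to 20.2). At the 3614 sites with an Oct4defSox2 summit but no SoxOct match, 1045 were shared (28.9%, interval 27.5 to 30.4). The difference was −13.0 points (interval −16.8 to −8.47). Without an Oct4defSox2 summit the shares were 2.71% (8 of 295) with and 4.66% (511 of 10971) without a SoxOct match. Presence of the mutant went with more sharing in both groups. At sites with an Oct4defSox2 summit the gap was smaller with 1 mismatch more allowed in SoxOct, 21.8% (264 of 1210) with and 30.4% (835 of 2743) without a match. With 1 mismatch fewer the shares were 13.7% (7 of 51) and 28.0% (1092 of 3902).

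The order at occupied sites held with equal numbers, where 22.8% (33 of 145) of Oct4defSox2-occupied sites with and 41.3% (413 of 1000) of those without a SoxOct match were shared, a difference of −18.5 points (interval −25.3 to −10.5). Equal numbers limits the Oct4defSox2 list as well, from 31060 to its 5793 strongest summits. At sites without a summit of the whole Oct4defSox2 list, sharing with minus without a SoxOct match was −1.95 points, and its interval of −3.34 to 0.629 includes 0. At sites without one of the 5793 strongest it was −9.17 points (interval −12.2 to −4.60), but these include sites that weaker Oct4defSox2 summits occupy. Within the highest of the 5 groups of Oct4-SK scores the values at occupied sites, over the whole list, were 21.7% (34 of 157) and 38.1%. Over all Oct4-SK sites, the shared fraction with minus without a SoxOct match was −0.889 points, and its interval of −3.03 to 1.72 includes 0. With equal numbers that difference was −7.31 points (interval −10.7 to −3.15). Over all sites, those with a SoxOct match also had the higher median score given above, and 339 of 634 had an Oct4defSox2 summit against 3614 of 14585 without a match. The part of either in the smaller difference was not tested.

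**Figure D4:**
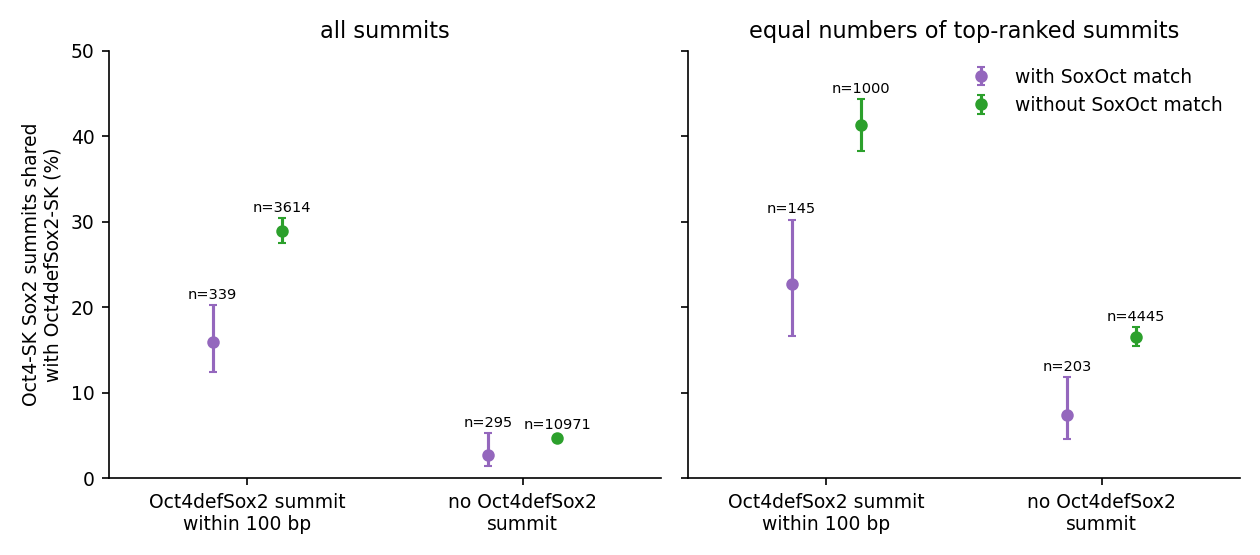
Share of Oct4-SK Sox2 sites that were also in the Oct4defSox2-SK list (%), split by an Oct4defSox2 summit within 100 bp (x axis) and by a SoxOct match (purple with, green without), with 95% counting intervals and the number of sites. At occupied sites 15.9% with and 28.9% without a match were shared over all summits, and 22.8% and 41.3% with equal numbers.

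The POU factors themselves were distributed unequally over the 3 classes. Wild type Oct4 at day 1 had a summit within 100 bp of 9.79% of Oct4-SK-only, 18.05% of shared and 4.02% of Oct4defSox2-SK-only Sox2 sites. Oct4defSox2, whose list of 31060 summits is longer than the 8199 of Oct4, had one at 20.98%, 67.9% and 39.3%. Shared Sox2 sites thus coincided most often with the mutant. With equal numbers Oct4 was at 15.9%, 15.4% and 2.81% of the classes and Oct4defSox2 at 15.2%, 37.3% and 10.3%. The wild type factor kept its preference for Oct4-SK-only over Oct4defSox2-SK-only sites, by 5.76 points over all summits and 13.1 points with equal numbers. For the mutant the difference was −18.3 points over all summits and 4.94 points with equal numbers, so its direction depended on the length of the lists.

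The 572 Oct4-SK-only sites with a SoxOct match carried POU factors far more often than the remaining 13029. Oct4 had a summit at 219 of them (38.3%) against 8.53% of the rest, and Oct4defSox2 at 285 (49.8%) against 19.7%. Oct4 was at 20.98% of them at day 5 and at 17.0% at day 7, against 2.81% and 1.43% of the rest. So at 285 of these sites the mutant had a summit at day 1, while the Oct4defSox2-SK list had no Sox2 summit within 100 bp of the Oct4-SK Sox2 summit. Distances from the mutant summit itself were not counted. Of those 285 sites that the mutant occupied, 177 (62.1%) also had an Oct4 summit at day 1 in the wild type cocktail.

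The named sequences give single examples. The Itfg1 intron site had a Sox2 score of 45.6 in Oct4-SK, rank 36, with an Oct4 score of 10.4, an Oct4defSox2 score of 76.8 and no Sox2 summit in Oct4defSox2-SK. The chromosome 12 site scored 40.6 for Sox2, 33.3 for Oct4 and 76.3 for Oct4defSox2, again without Sox2 beside the mutant. The chromosome 2 site, with 1 mismatch to SoxOct, scored 40.6 for Sox2 and 17.4 for Oct4defSox2 and had no Oct4 summit. All 3 sites had no Sox2 summit in either cocktail at day 5. Scores depend on the library and are not compared between antibodies.

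Among the shared SoxOct sites the Cmss1 intron site had Sox2 scores of 19.9 in Oct4-SK and 32.3 in Oct4defSox2-SK, with Oct4 at 64.7 and Oct4defSox2 at 86.1. The chromosome 6 site had Sox2 scores of 24.5 and 26.7, and the Slc39a11 intron site 27.1 and 17.6, and both had an Oct4defSox2 but no Oct4 summit. All 3 shared sites kept a Sox2 summit in both cocktails at day 5. The highest Oct4defSox2-SK-only site with a SoxOct match, on chromosome 10, scored 13.8 and ranked 1047 of 5793. The Cdh11 intron site, in the gene of a mesenchymal cadherin, scored 36.9, had neither Oct4 nor Oct4defSox2 at day 1 and had Sox2 summits in both cocktails at day 5.

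The highest Oct4-SK-only scores came from sites of another kind. The first, 77.8, lay in a coding exon of Gm10800 and another, 49.2, between genes on chromosome 9. Their 201-base windows share an identical run of 37 bases, and both sites had Sox2 summits at day 5 in the Oct4-SK, Oct4defSox2-SK and Oct6-SK lists. Reads from repeated sequence cannot be told apart in these lists. The remaining named site, in an intron of Lgr4, a receptor of R-spondins, scored 57.9, with Oct4 at 11.4 and Oct4defSox2 at 28.7.

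Sox2 binding in other libraries separated shared from cocktail-specific sites. At day 1 in Oct6-SK cells, in which Oct6 took the place of Oct4, Sox2 was at 23.5% of shared sites, 7.14% of Oct4defSox2-SK-only and 3.10% of Oct4-SK-only sites. With equal numbers these shares were 27.5%, 7.72% and 6.57%. Shared sites thus had the highest share with another POU factor too. Sites with summits of all 3 antibodies within 100 bp made up 13.04% of shared, 4.43% of Oct4defSox2-SK-only and 2.82% of Oct4-SK-only sites. With equal numbers of Sox2 summits these shares were 15.1%, 4.61% and 6.05%, so the cocktail-specific classes changed order. The Oct6 list behind this count, Oct6M151S, reaches down to a score of 2.30, whereas the other lists start at 4.00 or above. For the Oct4 antibody a summit of any of its libraries counted, at any day and with Oct4, Oct4defSox2 or Oct4S151M. The count thus does not describe joint occupancy in the same cells. Without such sites the shared fraction was 9.62% of Oct4-SK and 26.2% of Oct4defSox2-SK sites.

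At day 5, too, shared sites had the highest shares. Sox2 in Oct4-SK cells was found at 26.2% of shared sites and 4.97% of Oct4-SK-only sites, a difference of 21.2 points (interval 19.1 to 23.5), and at 7.33% of Oct4defSox2-SK-only sites. With equal numbers these shares were 30.2%, 9.97% and 7.98%, so the order of the cocktail-specific classes turned. Sox2 in Oct4defSox2-SK cells was found at 48.6% of shared, 26.3% of Oct4defSox2-SK-only and 8.43% of Oct4-SK-only sites. With equal numbers those values were 39.6%, 17.4% and 9.44%. Of the Oct4-SK-only sites, 1472 (10.8%) had a Sox2 summit at day 5 in at least 1 of these cocktails, and 15.3% (701 of 4596) with equal numbers.

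Oct4-SK-only sites with a SoxOct match had a later Sox2 summit more often in Oct4-SK and in Oct6-SK cells. Sox2 in Oct4-SK at day 5 was at 11.2% of them against 4.70% of the Oct4-SK-only sites without a match, a difference of 6.49 points (interval 4.13 to 9.36). In Oct4defSox2-SK at day 5 the values were 8.04% and 8.45%, a difference of −0.408 points (interval −2.43 to 2.15). With equal numbers the differences were 4.32 points (interval 0.724 to 8.78) and −3.68 points (interval −6.04 to −0.292). In Oct6-SK at day 5 the shares were 7.34% with and 2.92% without a match, a difference of 4.43 points (interval 2.54 to 6.88), and 3.72 points with equal numbers. The 62 shared sites with a match had Sox2 at day 5 in 37.1% in Oct4-SK and 45.2% in Oct4defSox2-SK.

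**Figure D5:**
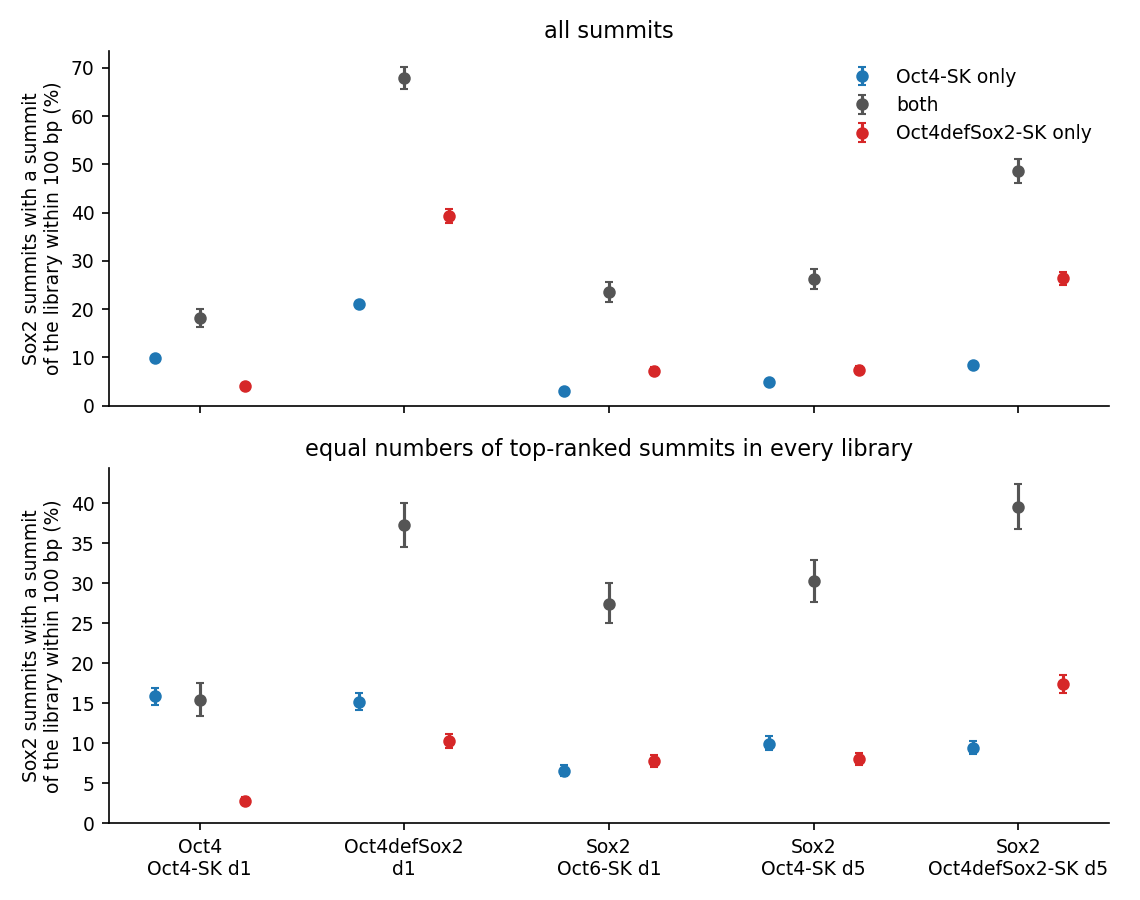
Share of Sox2 day 1 sites with a summit of each named library within 100 bp (%), for Oct4-SK-only (blue), shared (grey) and Oct4defSox2-SK-only sites (red), with 95% counting intervals, over all summits (top) and equal numbers (bottom). Among the 5 libraries drawn (Oct4 and Oct4defSox2 at day 1, Sox2 in Oct6-SK at day 1, Sox2 in both cocktails at day 5), shared sites have the highest share except for Oct4 with equal numbers, where 15.9% of Oct4-SK-only and 15.4% of shared sites have a summit.

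Both kinds of site lay mainly away from promoters. Introns held 41.3% of Oct4-SK-only, 42.6% of shared and 43.1% of Oct4defSox2-SK-only sites, and 52.2%, 54.1% and 52.9% lay between genes. The median distance to the start of a coding gene was 62761 bp, 80570 bp and 74948 bp. A promoter, taken as 1 kb around a coding start, held 4.03%, 1.42% and 2.06% of sites, and the Oct4-SK-only share exceeded the Oct4defSox2-SK-only share by 1.97 points (interval 1.40 to 2.49). With equal numbers the promoter shares were 2.96% (136 of 4596) of Oct4-SK-only sites against 90 of 4597 Oct4defSox2-SK-only sites, a difference of 1.00 points (interval 0.369 to 1.64). The median GC content of the windows was 39.3%, 38.3% and 38.8%.

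Genes were assigned a site when a Sox2 summit lay within 50 kb of one of their starts. Of 21827 coding genes, 39.0% had an Oct4-SK summit, 13.8% an Oct4defSox2-SK summit, 29.4% a summit of Oct4-SK only, 4.10% of Oct4defSox2-SK only and 9.65% of both. With equal numbers 16.2% had an Oct4-SK and 13.8% an Oct4defSox2-SK summit. The 7 lists of genes chosen for this tissue were read against these shares. Of their 131 genes, 63 had an Oct4-SK and 27 an Oct4defSox2-SK summit, 22 of them both, and with equal numbers 29 and 27.

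The naive pluripotency genes were close to the background, with 9 of 24 (37.5% beside 39.0%) in Oct4-SK, 4 (16.7% beside 13.8%) in Oct4defSox2-SK and 3 (12.5% beside 9.65%) in both. Of those 3, Pou5f1 and Sox2 rest on the coding exon summits given below. The counts in Oct4-SK and Oct4defSox2-SK were 3 and 4 (beside 16.2% and 13.8%) with equal numbers, so the larger Oct4-SK count went with the longer list. At Pou5f1, the Oct4-SK summit 1934 bp upstream of the start, whose sequence is shown above, scored 7.34. It held a SoxOct match and a Sox element and carried Oct4 (44.7) and Oct4defSox2 (48.5) at day 1. Sox2 was found there at day 5 in Oct4-SK (13.6) and at neither time in Oct4defSox2-SK. With equal numbers this Sox2 summit, of rank 8613, drops out, and neither cocktail then has Sox2 at the site at day 1. The cells also carry a GFP transgene driven by the Oct4 promoter. Should that transgene include this site, its reads cannot be told apart from those of the gene in summit lists.

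Further summits lay 286 and 290 bp downstream of the Pou5f1 start (scores 28.0 and 32.6) and 420 and 355 bp downstream of the Sox2 start (26.1 and 36.2). Those pairs stand in coding exons of genes that were also delivered by retrovirus, and reads from the vectors cannot be told apart from them in summit lists. Klf2, a Krüppel-like factor of naive cells, had a summit at −2773 bp from its start in Oct4defSox2-SK only (17.6), which held a Sox element. Klf4 had one 6264 bp downstream of its start in Oct4-SK only (18.8), also with a Sox element. Zfp42, a marker of naive cells, had a shared summit (9.19 and 10.4), and Nr0b1, a nuclear receptor gene, an Oct4-SK-only summit with a SoxOct match (5.31).

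Genes of the Sox family had Sox2 summits at 9 of 18 in Oct4-SK, at 7 in Oct4defSox2-SK and at 6 in both, beside 39.0%, 13.8% and 9.65% of all coding genes. Without Sox2, whose shared summit cannot be told apart from vector reads, the counts were 8, 6 and 5 of 17. The highest scoring site of all listed genes was 6651 bp downstream of the Sox21 start, with score 72.7 and rank 2 in Oct4-SK and 87.0 and rank 1 in Oct4defSox2-SK. Its Oct4-SK summit held a SoxOct match with 1 mismatch, shown above, and carried Oct4 (77.4) and Oct4defSox2 (222). The Oct4defSox2-SK summit of the pair lay 79 bp away, and neither the match nor the Oct4defSox2 summit was within 100 bp of it. Another pair of Sox21 summits, upstream of the gene (15.2 and 22.6), lay 134 bp apart and so did not count as shared.

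Among the remaining Sox genes, Sox6 shared an intronic site (17.0 in Oct4-SK and 31.2 in Oct4defSox2-SK), as did Sox13 (19.7 and 18.6). Sox17, a gene of endoderm, shared a summit in a coding exon (24.5 and 21.9). Sox5 had an Oct4-SK-only intronic summit with a SoxOct match (11.6), and Sox7 an Oct4defSox2-SK-only summit (10.1). With equal numbers 7 of the 18 Sox genes had a summit in each library, beside 16.2% and 13.8% of all coding genes.

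Of the neural progenitor genes, 7 of 18 (38.9%, beside 39.0% of all coding genes) had an Oct4-SK summit, 6 (33.3% beside 13.8%) an Oct4defSox2-SK summit and 4 (22.2% beside 9.65%) both. With equal numbers 4 (22.2% beside 16.2%) and 6 (33.3% beside 13.8%) had one. Dll1, which encodes a Notch ligand, shared a summit at −6371 bp from its start in Oct4-SK (27.7) with one at −6311 bp in Oct4defSox2-SK (20.7), and both held a Sox element. Pou3f1, the gene of Oct6, had summits of 23.9 and 13.8 in a coding exon that lay 112 bp apart and so missed the limit of 100 bp. Otx2 and Zic1, transcription factor genes of the early nervous system, had Oct4defSox2-SK-only summits (10.3 and 11.2).

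Mesenchymal and fibroblast genes had the highest count in Oct4-SK, 18 of 24 beside 39.0% of all coding genes. In Oct4defSox2-SK 5 had a summit (20.8% beside 13.8%), and all 5 were also among the 18 (beside 9.65% of all coding genes with both). With equal numbers the counts were 8 (33.3% beside 16.2% of all coding genes) and 5 (20.8% beside 13.8%), so the gap between the cocktails was smaller. Fn1, which encodes fibronectin, shared an intronic site with a Sox element that scored 24.97 in Oct4-SK and 8.70 in Oct4defSox2-SK. Col3a1, a collagen gene, shared an upstream site (9.80 and 11.3). Twist1 (9.17) and Prrx1 (8.73), transcription factor genes of mesenchyme, and Col1a1 (9.46) had Oct4-SK-only summits.

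Of the epithelial genes, 9 of 20 (45.0% beside 39.0% of all coding genes) had an Oct4-SK summit and 1 (beside 13.8%) an Oct4defSox2-SK summit, and with equal numbers 3 (beside 16.2%) and 1. Tjp3 (12.8), a tight junction gene, had the highest of these Oct4-SK scores, and Grhl2 (9.19), an epithelial transcription factor gene, was another. Itgb4, an integrin gene, was the gene with summits in both lists, at different positions (6.22 in Oct4-SK, and 10.4 and 6.50 in Oct4defSox2-SK). Of the genes of the TGF-beta pathway, 10 of 18 (55.6% beside 39.0%) had an Oct4-SK summit, 4 (22.2% beside 13.8%) an Oct4defSox2-SK summit and 3 (16.7% beside 9.65%) both. With equal numbers 5 (27.8% beside 16.2%) and 4 (22.2% beside 13.8%) had one. Tgfbr2, a receptor gene, shared a summit (8.62 and 13.6), and Tgfbr1, its partner receptor, had an Oct4-SK-only intronic summit with a SoxOct match (4.26), at which Oct4 (19.7) and Oct4defSox2 (29.8) were found. Of 10 genes of AP-1 factors, 2 (beside 39.0%) had an Oct4-SK and 1 (beside 13.8%) an Oct4defSox2-SK summit, and with equal numbers 0 (beside 16.2%) and 1 (beside 13.8%). Junb shared a summit at −1366 bp from its start in Oct4-SK (scores 7.99 and 11.2) and Fos had Oct4-SK-only summits (6.22 and 7.66). Near genes of these lists a SoxOct match stood at 5 of 99 Oct4-SK summits (5.05%, beside 4.17% of all Oct4-SK summits), those at Sox21, Sox5, Pou5f1, Nr0b1 and Tgfbr1, and at 0 of 37 Oct4defSox2-SK summits (interval up to 9.41%, beside 2.04% of all), counts near those of all summits.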

How the data were processed

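Chromatin was immunoprecipitated from OG2MEF cells and sequenced. The authors aligned reads to mm10 with Bowtie2 2.2.5 and called peaks per library with MACS2, with summits reported. The stated limit is p 0.0001, but the Oct6M151S list, used here for sites with all 3 antibodies, holds scores down to 2.30, below that limit. Depth per library is not given in the lists and was not analysed here, and input libraries were not analysed here. The deposited scores are the −log10 p-value at each summit, which grows with depth, so scores were used as ranks within a library. Shares were repeated at equal numbers (5793, shorter lists whole). Ties were taken in alphabetical order of the chromosome names, then by position. The Oct4-SK cut falls within ties at a score of 9.19, so tied summits were kept on some chromosomes and dropped on others. Sites, motifs and genes were counted in Python 3.11.15 with numpy 2.4.6, using the GRCm38 sequence and the GENCODE M21 annotation. Shares have Wilson and differences Newcombe 95% intervals. The counting was tested on simulated data. Named sites were the 3 highest per class, and the 3 highest with a SoxOct match, passing over sites with all 3 antibodies, chromosome 18 and neighbours within 10 kb. SoxOct sites near listed genes, of which Sox21 and Pou5f1 are printed, were added after their values were seen. Motif letters were set after the lists had been seen, following earlier processing, and members and gene lists were chosen with earlier results of these data known. Alternatives changed the sharing distance, motif window and mismatches, score minimum, promoter and gene distance, chromosomes, summits per peak and sites with all 3 antibodies.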

Additional observations from a re-analysis of the deposited data

How the results depend on the processing

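No analysis paired by sample was possible because each group is 1 library. The difference of day 5 Sox2 at Oct4-SK-only sites, given below, was paired over sites. The shared part of Oct4-SK sites was 6.33% within 50 bp, 14.8% within 250 bp, 14.8% with a score of at least 10, 20.7% with equal numbers and 9.62% without sites of all 3 antibodies. For Oct4defSox2-SK sites it was 16.6% within 50 bp, 39.3% within 250 bp, 20.6% with equal numbers and 26.2% without those sites. With a score of at least 10 the difference of Oct4-SK-only minus Oct4defSox2-SK-only sites was 0.821 points for MORE (interval then above 0) and 0.437 for AP-1 (sign turned). It was 0.700 for KLF (interval then above 0) and −2.71 for Oct4defSox2 summits (interval then including 0). With equal numbers it was 0.588 for MORE (interval above 0) and, with the sign turned, 4.94 for Oct4defSox2 summits. KLF turned to −0.0118 without sites of all 3 antibodies. The SoxOct share of shared minus Oct4-SK-only sites was −2.24 with a score of at least 10, −2.52 with equal numbers, 0.881 with 1 mismatch more and 0.0101 with another, stricter SoxOct string, an alternative chosen after seeing the data. Sharing with minus without SoxOct was correspondingly −4.73, −7.31, 0.528 and 0.0565. At SoxOct sites the difference by Oct4defSox2 summits was 13.7 with 1 mismatch fewer, with an interval that includes 0. Day 5 Sox2 at Oct4-SK-only sites, Oct4-SK minus Oct4defSox2-SK, was −3.46 over all summits and 0.522 with equal numbers. Listed genes with a summit numbered 68 over both lists, 41 with equal numbers, 31 within 10 kb and 32 with a score of at least 10. In that order 48.1%, 22.1%, 22.1% and 16.8% of the 131 had an Oct4-SK summit, beside 39.0%, 16.2%, 12.3% and 12.7% of all coding genes. For Oct4defSox2-SK summits the shares were 20.6%, 20.6%, 10.7% and 14.5%, beside 13.8%, 13.8%, 3.53% and 6.37%. The causes were not tested. The other 112 values of these comparisons kept their direction and their side of 0 or stayed within the spread. Of the counts for the single gene lists, 41 stayed within 1.5 times and 64 moved further. The 2 libraries have no replicates and their depth was not analysed here, so list length and efficiency of precipitation cannot be told apart from the cocktails.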
